A study of Mus musculus with 16 samples.

Results

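A set of 9 genes of the stratified oral epithelium and its periderm was followed through 16 expression arrays of the mouse embryonic palate: Trp63, Grhl3, Bnc1, Sfn, Perp, Pkp3, Gjb2, Mpzl2 and Ly6d. They were selected on earlier results of the same arrays, taken here to be above all the mutant against control contrast at E14.5, so their E14.5 values are a description and carry no test. The platform annotation gave 15 probe sets to one of these genes alone, 11 of which reached the level needed for testing, and each of the 9 genes kept at least 1 of them. The 9 genes are 9 of the 18194 genes that the arrays measured and 9 of the 11116 that were tested.

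The arrays compared mutants and controls at the embryonic stages E13.5 and E14.5, on the C57BL/6J strain. Mutants were Erk2 fl/fl; Wnt1-Cre, with Erk2, a kinase of the MAPK pathway, deleted where the Wnt1 driver acts. Controls were Erk2 fl/fl without Cre by their genotype label, although their titles call them wild-type, so both genotypes carried the floxed allele and the controls carried no Cre. There were 3 mutant and 3 control arrays at E13.5, and 5 and 5 at E14.5, where replicates 1 and 2 of each genotype were labelled batch 1 and replicates 3, 4 and 5 batch 2. Wnt1-Cre acts in the neural crest, from which the palatal mesenchyme derives and the palatal epithelium does not. The tissue label is palate mesenchyme, whereas the series description speaks of primary mesenchymal cells. How many embryos an array holds is not given in the sources used here, so the p-values speak for the spread among the arrays, which may be technical.

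The oral surface of the growing palatal shelf is covered by a basal epithelial layer and a flat outer layer, the periderm, which keeps the shelves from sticking to other surfaces before they meet at the midline. The transcription factor p63, encoded by Trp63, holds basal cells in the stratified state and drives genes of desmosomes and keratins, while the grainyhead factor Grhl3 acts in the periderm and in barrier formation. Desmosomes, gap junctions and cell surface proteins then tie the layers to each other.

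Values are log2 expression values as deposited, made with GCRMA. Genes with an adjusted p under 0.05 (Benjamini-Hochberg, over all tested genes in a limma fit) count as called, and differences are given as mutant minus control on the log2 scale with the moderated standard error. The median of an array lay between 3.39 and 3.44 in the E13.5 groups but between 1.63 and 1.66 in the E14.5 groups, so a level at one stage cannot be set against a level at the other, and levels of different probe sets are not compared. Within a group the arrays correlated at 0.993 to 0.997 over the tested genes. Arrays with Xist above the mean of the Y-linked Ddx3y, Eif2s3y and Kdm5d were scored as female. These were the 6 arrays of E13.5, 3 of the 5 E14.5 mutants and 1 of the 5 E14.5 controls. The score does not tell a female sample from a pool of both sexes. The level of the targeted gene was not analysed here. Of 16 markers of palatal mesenchyme, 16 passed the filter on low values, and so did 12 of 16 keratins, which mark epithelium, so RNA of both kinds was present on these arrays.

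Promoter windows from RefSeq (build GRCm38.p6, 250 bases before to 50 bases after the annotated start, printed in the direction of transcription) matched 4 of the 9 genes, Sfn, Bnc1, Gjb2 and Grhl3. They are shown because these genes were higher together in E14.5 mutants, and because Grhl3 encodes a factor whose motif can be looked for in the others. All 4 genes lie on the minus strand. The Sfn window is chr4:133602119-133602418, that of Bnc1 chr7:81992250-81992549, that of Gjb2 chr14:57104653-57104952 and that of Grhl3 chr4:135573583-135573882. Capitals mark a match to a motif searched on both strands: in Sfn the grainyhead motif AACNGGTT, and in Bnc1 and Gjb2 the AP-2 motif GCCNNNGGC.
Sfn: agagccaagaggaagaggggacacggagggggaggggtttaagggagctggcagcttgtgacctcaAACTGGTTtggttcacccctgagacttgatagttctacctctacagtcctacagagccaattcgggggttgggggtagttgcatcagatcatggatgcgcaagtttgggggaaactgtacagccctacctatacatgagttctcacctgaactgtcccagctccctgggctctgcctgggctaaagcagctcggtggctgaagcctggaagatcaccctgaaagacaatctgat
Bnc1: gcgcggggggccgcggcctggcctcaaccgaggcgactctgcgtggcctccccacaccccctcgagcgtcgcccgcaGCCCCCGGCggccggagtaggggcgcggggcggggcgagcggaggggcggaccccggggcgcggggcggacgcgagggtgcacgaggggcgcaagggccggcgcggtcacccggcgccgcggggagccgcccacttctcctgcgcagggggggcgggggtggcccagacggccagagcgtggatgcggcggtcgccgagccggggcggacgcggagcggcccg
Gjb2: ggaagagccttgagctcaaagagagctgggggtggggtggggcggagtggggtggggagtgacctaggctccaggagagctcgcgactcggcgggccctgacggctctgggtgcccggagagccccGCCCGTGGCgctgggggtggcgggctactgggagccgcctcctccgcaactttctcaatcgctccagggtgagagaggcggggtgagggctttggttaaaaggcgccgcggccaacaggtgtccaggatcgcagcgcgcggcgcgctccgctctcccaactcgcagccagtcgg
Grhl3: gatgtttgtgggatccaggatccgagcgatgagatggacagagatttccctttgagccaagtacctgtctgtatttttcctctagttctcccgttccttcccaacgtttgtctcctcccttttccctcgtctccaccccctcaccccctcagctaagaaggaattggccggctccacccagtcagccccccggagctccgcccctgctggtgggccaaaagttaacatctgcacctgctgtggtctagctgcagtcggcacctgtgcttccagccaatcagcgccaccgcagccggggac

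The Sfn window held AACTGGTT, which begins 184 bases before the start, and none of the other windows held AACNGGTT. Of all 32851 RefSeq windows of this length, 2.09% held AACNGGTT, and 0.146% held the stricter AACCGGTT, which each AACNGGTT count includes and none of the 4 windows contained. GCCNNNGGC was matched as GCCCCCGGC in Bnc1, 173 bases before the start, and as GCCCGTGGC in Gjb2, 124 bases before it, and 16.6% of all windows held this motif. Neither motif overlapped the other in these windows. G and C made up 83.3% of the Bnc1 window, 70.0% of that of Gjb2, 58.3% of that of Grhl3 and 54.0% of that of Sfn, against a median of 52.7% over all windows. The number of CpG dinucleotides followed the same order, with 50, 27, 12 and 4, and the median window had 7. Only the Sfn window was chosen by a rule that named the grainyhead motif. The other windows and the AP-2 motif were added after the values were known. A match describes the letters of the window and was not tested as a binding site.

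All 9 genes were higher in E14.5 mutants than in E14.5 controls, by 1.23- to 2.48-fold, and at E13.5 none differed between genotypes past the threshold. At E14.5, 8 of the 9 were among the genes called higher in mutants, all but Trp63, in a contrast where 1.48% of the tested genes were called higher. For the same 8 genes every mutant array lay above every control array, which held for 2.53% of the tested genes. Since this contrast chose the genes, these counts describe the choice and nothing is read from them. The median log2 difference of the 9 genes at E14.5 was 0.63, and that of all tested genes was 0.01. The contrast behind the choice is not named in the sources and was taken to be that of E14.5. The E13.5 differences are apart from the choice only as far as this holds. Their errors, intervals and p-values are not fully apart from it, because the fit estimates the spread of each gene from the arrays of both stages. At E13.5, 0 of 9 genes were called by limma and 1 of 9 had an unadjusted p under 0.05, while 0.099% of the tested genes were called and 1060 had an unadjusted p under 0.05. With the E13.5 arrays alone 11 genes were called, none of them among the 9. No other tool was run. In bulk tissue, fewer cells of a type and less RNA per cell cannot be told apart, and this holds for every difference below.

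**Figure D1:**
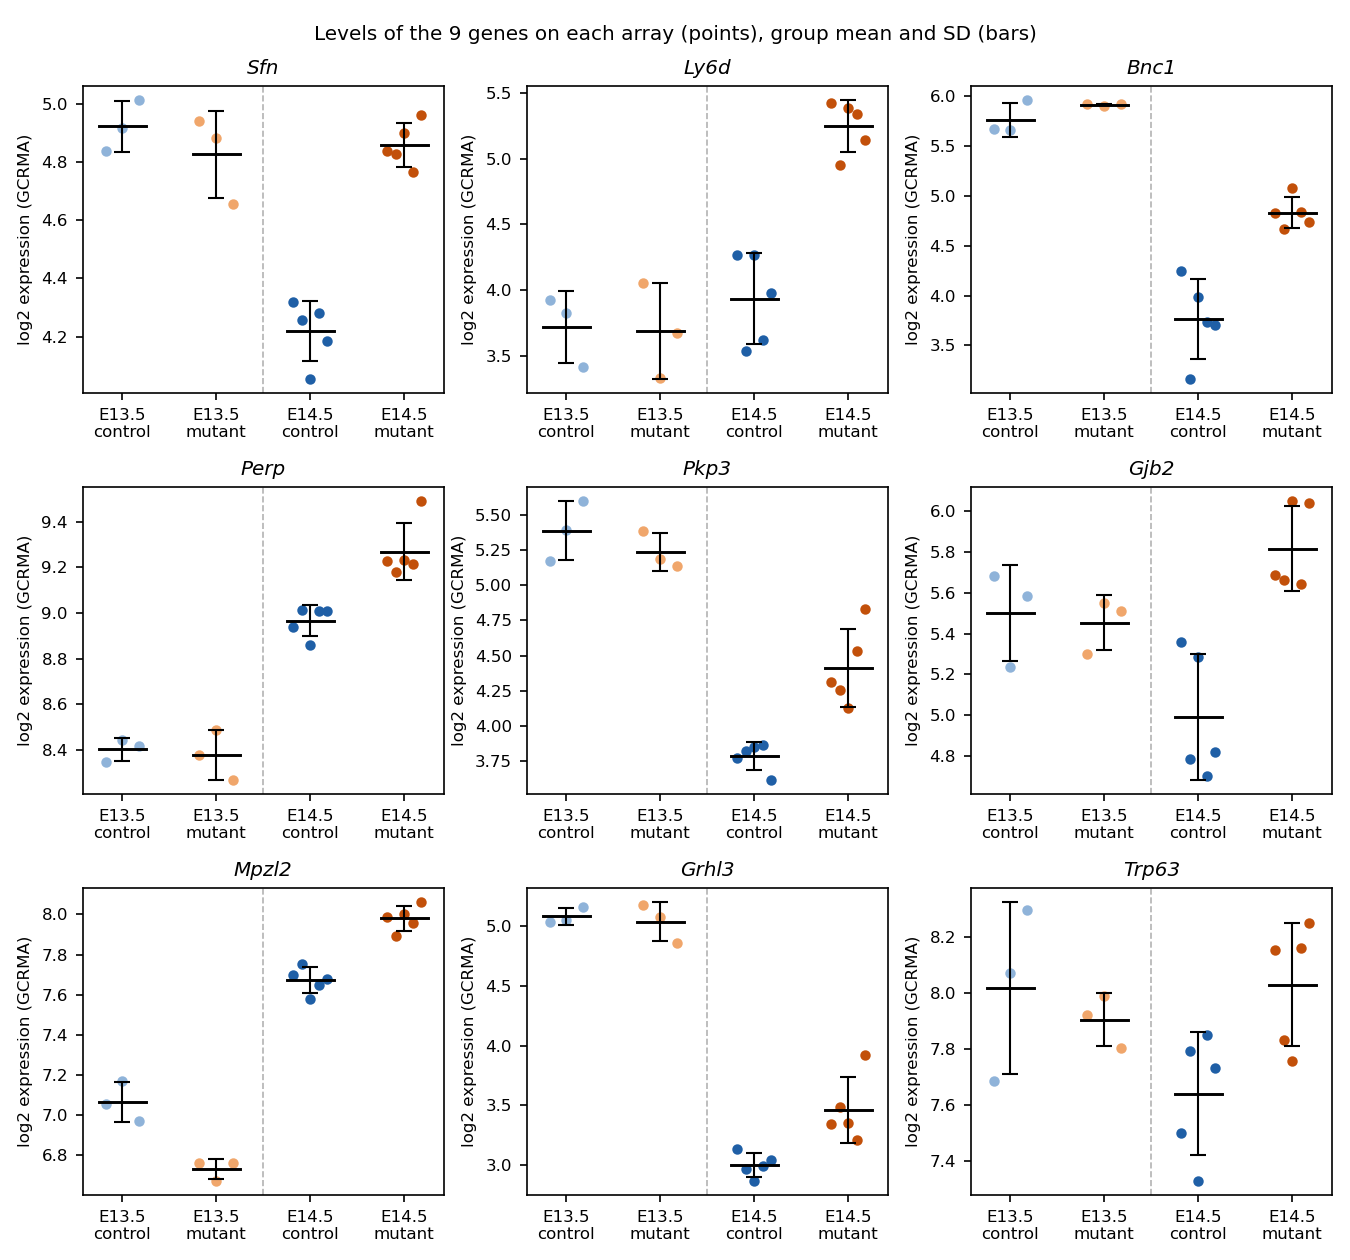
Each panel plots the deposited log2 expression value of 1 gene (vertical axis, with its own range) on each array (points) for the E13.5 and E14.5 controls (blue) and mutants (orange), with the group mean and SD (bars), n = 3 per group at E13.5 and 5 at E14.5. The E14.5 mutant points lie above all E14.5 control points in 8 panels and overlap them for Trp63, while at E13.5 the groups overlap in every panel but that of Mpzl2.

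Among the regulators, Trp63 is the gene whose genotypes overlapped at E14.5. Its probe set 1418158_at read 7.50, 7.79, 7.33, 7.85 and 7.73 in the controls and 8.15, 7.83, 7.76, 8.16 and 8.25 in the mutants. Mutants 2 and 3 lay below the highest control, and the other 3 mutants stood above all controls. The mean was 7.64 ± 0.22 in controls and 8.03 ± 0.22 in mutants (SD, n = 5 each), a difference of 0.39 ± 0.13 or 1.31-fold. It was 0.35 in batch 1 and 0.42 in batch 2. Without controls 1 and 3, the lowest of the group, the difference was 0.24.

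At E13.5 Trp63 read 7.69, 8.07 and 8.29 in controls and 7.92, 7.99 and 7.80 in mutants. The 3 mutants lay inside the range of the controls. The difference of −0.11 ± 0.17 had a 95% interval from −0.48 to 0.25 (limma adjusted p = 0.875). The other 3 probe sets of Trp63, 1451876_a_at, 1452027_a_at and 1459581_at, did not reach the level for testing. Their control means lay between 2.38 and 2.52 at E13.5 and between 0.92 and 1.44 at E14.5, and the mutant and control means of each differed by at most 0.11.

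Grhl3, which encodes the grainyhead factor of periderm and barrier formation, gave 3.13, 2.96, 2.86, 2.99 and 3.04 in E14.5 controls on probe set 1436932_at. The E14.5 mutants gave 3.34, 3.48, 3.35, 3.21 and 3.92. All mutants lay above all controls, with a gap of only 0.076 between the lowest mutant and the highest control, and mutant 5 stood apart at the top. Every E14.5 value lay below log2 4, the level for testing, which Grhl3 reached through its E13.5 arrays. The difference was 0.46 ± 0.11, or 1.38-fold, and 0.36 and 0.53 within batches 1 and 2. It was 0.34 without mutant 5. Grhl3 stayed among the called genes in 10 of 32 alternative analyses, fewer than any other of the 8. E13.5 controls read 5.03, 5.05 and 5.17 and E13.5 mutants 5.18, 5.08 and 4.86, which overlapped (difference −0.04 ± 0.14, 95% interval −0.35 to 0.26, limma adjusted p = 0.953).

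Bnc1 encodes basonuclin, a zinc finger protein of basal keratinocytes. On probe set 1424890_at the E14.5 controls read 4.25, 3.16, 3.98, 3.74 and 3.71. The E14.5 mutants read 4.83, 4.67, 5.08, 4.84 and 4.74. The controls were spread more widely (SD 0.40) than the mutants (SD 0.15), with control 2 far below the others, and still no mutant reached down to the highest control. The difference was 1.07 ± 0.15, or 2.09-fold, with 1.04 in batch 1 and 1.08 in batch 2. Without control 2 it was 0.90.

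Bnc1 was the only one of the 9 genes above zero at E13.5 on the deposited scale. Controls read 5.67, 5.67 and 5.97 and mutants 5.92, 5.91 and 5.92, so that 2 controls lay below all mutants and the third above them. The difference of 0.15 ± 0.19 had a 95% interval from −0.26 to 0.56 (limma adjusted p = 0.852).

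Sfn encodes stratifin, an adaptor protein of keratinocytes with a part in their exit from the cell cycle. Its probe set 1448612_at read 4.32, 4.26, 4.05, 4.28 and 4.19 in E14.5 controls and 4.84, 4.83, 4.90, 4.76 and 4.96 in E14.5 mutants. Both groups were tight and a gap of 0.45 lay between them. The means were 4.22 ± 0.10 and 4.86 ± 0.07 (SD, n = 5 each), a difference of 0.64 ± 0.07 or 1.56-fold, with 0.55 in batch 1 and 0.70 in batch 2. Among the 9 genes Sfn had the difference that was largest relative to its standard error. E13.5 controls read 4.84, 4.92 and 5.01 and mutants 4.94, 4.88 and 4.66, with 2 of the mutants inside the range of the controls and the third below it. The E13.5 difference was −0.10 ± 0.08, with a 95% interval from −0.28 to 0.09 (limma adjusted p = 0.768).

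The junction genes Perp, Pkp3 and Gjb2 were all higher in E14.5 mutants, with Gjb2 the most and Perp the least. Perp encodes a membrane protein of desmosomes that p63 is known to drive. Its probe set 1416271_at read 8.94, 9.01, 8.86, 9.01 and 9.01 in E14.5 controls and 9.23, 9.18, 9.23, 9.21 and 9.49 in mutants, a difference of 0.30 ± 0.06 or 1.23-fold. No mutant overlapped a control, and mutant 5 stood well above the other 4 mutants. The difference was 0.23 in batch 1, 0.35 in batch 2 and 0.25 without mutant 5. At E13.5 Perp read 8.35, 8.45 and 8.42 in controls and 8.38, 8.49 and 8.27 in mutants, with the controls inside the range of the mutants (difference −0.03 ± 0.08, 95% interval −0.20 to 0.15, limma adjusted p = 0.951).

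Pkp3 encodes plakophilin 3, a protein of the desmosomal plaque. On probe set 1418831_at the E14.5 controls read 3.77, 3.82, 3.85, 3.86 and 3.62, all within a narrow range, and the mutants 4.31, 4.26, 4.13, 4.53 and 4.83. Every mutant was above every control, and mutants 4 and 5 were the highest. The difference was 0.63 ± 0.12, or 1.54-fold, with 0.49 and 0.72 in batches 1 and 2. In E13.5 controls Pkp3 read 5.17, 5.39 and 5.59 and in mutants 5.38, 5.18 and 5.14. Those groups overlapped, and the difference of −0.15 ± 0.15 had a 95% interval from −0.47 to 0.17 (limma adjusted p = 0.795). A second probe set, 1418832_at, was too low to be tested, with group means of 1.79 in both genotypes at E13.5 and of 0.75 in controls and 0.83 in mutants at E14.5.

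Gjb2 encodes a connexin of epithelial gap junctions. Its probe set 1423271_at gave 5.36, 4.78, 5.29, 4.70 and 4.82 in E14.5 controls. The E14.5 mutants gave 5.68, 5.66, 6.05, 5.64 and 6.04. Controls 1 and 3 stood above the other controls, mutants 3 and 5 above the other mutants, and the genotypes did not overlap. The difference was 0.82 ± 0.14, or 1.77-fold. It was 0.60 in batch 1, 0.97 in batch 2 and 1.06 without controls 1 and 3. At E13.5 the controls gave 5.68, 5.24 and 5.58 and the mutants 5.30, 5.55 and 5.51, with all mutants inside the range of the controls (difference −0.05 ± 0.18, 95% interval −0.44 to 0.34, limma adjusted p = 0.961).

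Of the surface proteins, Ly6d had the largest E14.5 difference of the 9 genes. It encodes a lipid-anchored protein found on stratified epithelia. Probe set 1416930_at read 4.27, 3.54, 4.27, 3.63 and 3.98 in E14.5 controls and 5.42, 4.95, 5.38, 5.34 and 5.14 in E14.5 mutants. Controls 2 and 4 were lower than the other controls, mutant 2 was the lowest mutant, and a gap of 0.68 separated the genotypes. The difference was 1.31 ± 0.17, or 2.48-fold, and it was nearly the same in batch 1, at 1.28, and batch 2, at 1.33. E13.5 controls read 3.93, 3.83 and 3.42 and E13.5 mutants 4.06, 3.33 and 3.68. Both groups spanned a wide range, and the mutants reached both lower and higher than the controls. Of the E13.5 arrays only mutant 1 reached log2 4, the level for testing. At E14.5 controls 1 and 3 and every mutant reached it. On the E13.5 arrays Ly6d ranked between percentiles 33.2 and 40.2 of all genes, so its E13.5 values were low. The E13.5 difference was −0.04 ± 0.22, with a 95% interval from −0.51 to 0.44 that leaves room for a change of up to 1.36-fold upward or to 0.702 times downward (limma adjusted p = 0.979).

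Mpzl2, which encodes an immunoglobulin-type adhesion protein of epithelia, was the one gene whose genotypes did not overlap at either stage, and the direction differed. At E13.5 its probe set 1416236_a_at read 7.06, 7.17 and 6.97 in controls and 6.76, 6.67 and 6.76 in mutants. All 3 mutants lay below all 3 controls, as they did for 13.5% of the tested genes, while all mutants lay above all controls for 4.32%. The means were 7.06 ± 0.10 in controls and 6.73 ± 0.05 in mutants (SD, n = 3 each). The difference of −0.33 ± 0.06, or 0.793 times the control level, had a 95% interval from −0.47 to −0.20 and an unadjusted p = 0.00012, and it did not pass over all tested genes (limma adjusted p = 0.0742). In 4 of 33 alternative analyses it did pass, and its adjusted p ranged from 0.0183 to 0.445 over all of them.

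At E14.5 the same probe set of Mpzl2 read 7.70, 7.75, 7.58, 7.65 and 7.68 in controls and 7.99, 7.89, 8.004, 7.95 and 8.06 in mutants, with every mutant above every control. The difference was 0.31 ± 0.05, or 1.24-fold, with 0.21 in batch 1 and 0.37 in batch 2.

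The annotation gave Mpzl2 a further pair of probe sets that could be tested, and these followed the first in direction but with more spread. Probe set 1448265_x_at read 7.32, 7.28 and 6.91 in E13.5 controls and 6.83, 6.63 and 6.72 in E13.5 mutants, so that again all mutants lay below all controls. Its difference was −0.45 ± 0.17 at E13.5 (limma adjusted p = 0.472 in a fit of 18136 probe sets) and 0.32 ± 0.13 at E14.5, where 1 control, at 6.96, lay among the mutants. Probe set 1416237_at read 4.82, 4.57 and 4.05 in E13.5 controls and 4.27, 2.62 and 3.90 in mutants, which overlapped. Its difference was −0.89 ± 0.43 at E13.5 (adjusted p = 0.588, limma), and at E14.5, where its group means were 1.87 and 1.97, it was 0.11 ± 0.34. With the 3 probe sets averaged, the Mpzl2 difference was −0.56 ± 0.20 at E13.5 and 0.25 ± 0.15 at E14.5. Mpzl2 was then not among the genes called at either stage.

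**Figure D2:**
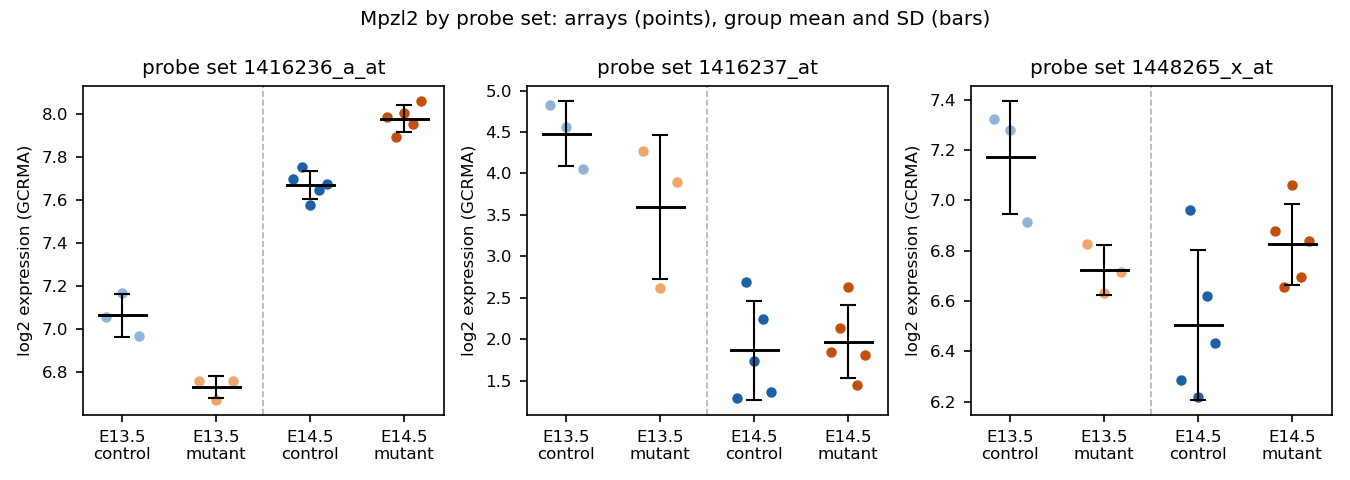
The 3 panels plot the deposited log2 value of each Mpzl2 probe set (vertical axis, each with its own range) on every array, with the group mean and SD (bars), n = 3 per group at E13.5 and 5 at E14.5. The E13.5 mutants lie below all E13.5 controls on 1416236_a_at and 1448265_x_at and overlap them on 1416237_at, and the E14.5 mutants lie above all E14.5 controls on 1416236_a_at alone.

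Seen over the 9 genes, the E13.5 differences lay close to those of all genes. On the deposited scale 8 of the 9 were below zero and 1 above, but with each array centred on the median of the tested genes 5 were above zero and 4 below. Their median was −0.05 and that of all tested genes −0.04, with 31.5% of all tested genes above zero. Differences other than that of Mpzl2 lay between −0.15 and 0.15. The mean of the 9 genes per array was 5.94 to 6.05 in E13.5 controls and 5.84 to 5.98 in E13.5 mutants, which overlapped, and 5.23 to 5.47 in E14.5 controls and 5.86 to 6.16 in E14.5 mutants, which did not.

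**Figure D3:**
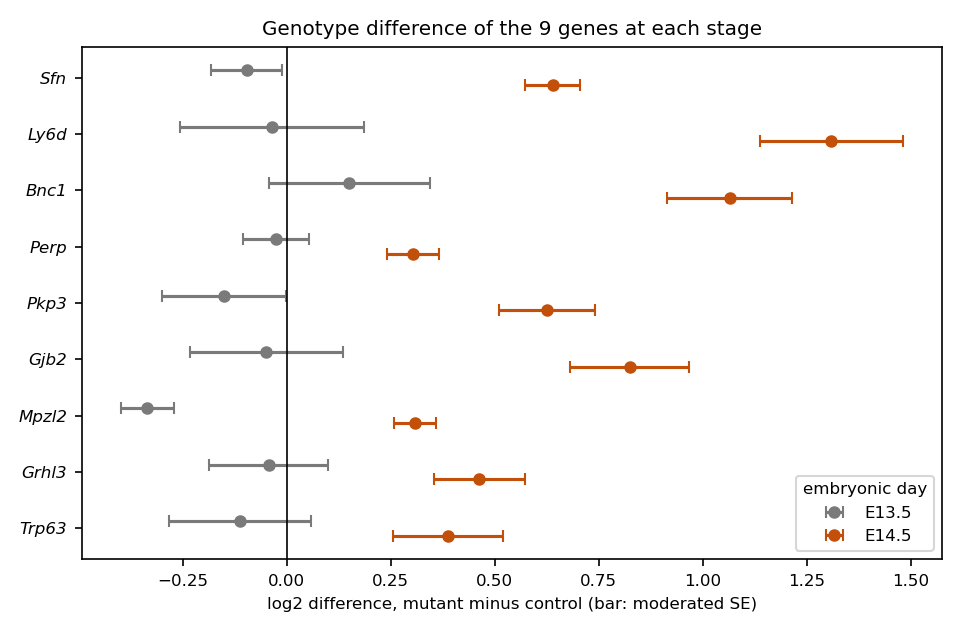
For each of the 9 genes the plot gives the mutant minus control difference in log2 expression (horizontal axis) at E13.5 (grey) and E14.5 (orange), with the moderated standard error from the limma fit as the bar. The E14.5 points run from 0.30 for Perp to 1.31 for Ly6d, and the E13.5 points from −0.33 for Mpzl2 to 0.15 for Bnc1.

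The E14.5 difference was more positive than the E13.5 difference for each of the 9 genes. As a description, it exceeded it by 1.34 ± 0.28 for Ly6d, 0.91 ± 0.25 for Bnc1, 0.87 ± 0.23 for Gjb2 and 0.78 ± 0.19 for Pkp3. For Sfn the excess was 0.74 ± 0.11, for Mpzl2 0.64 ± 0.08 and for the 3 remaining genes, Grhl3, Trp63 and Perp, 0.51, 0.50 and 0.33. Sfn and Mpzl2, which have the smallest errors relative to this excess, were among the 11 genes, or 0.099% of those tested, called more positive at E14.5. This measure contains the E14.5 contrast on which the genes were selected, so nothing is read from that count either. The distribution of values also differed between the stages, so the log2 differences of the stages may not be on the same scale.

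Of the genes related by sequence, the paralogues of the 9 genes, 22 were tested, and at E14.5 3 rose and none fell, with a median difference of 0.05. Those that rose were the desmosomal plakophilins Pkp1 (0.66 ± 0.16) and Pkp2 (0.43 ± 0.11), both relatives of Pkp3, and the surface protein gene Ly6h (0.31 ± 0.08), a relative of Ly6d (limma adjusted p = 0.0398, 0.0457 and 0.0476). The plakophilin Pkp4 was at 0.07 ± 0.04. Relatives of Sfn, which are expressed in most tissues, lay near zero, from −0.08 for Ywhag to 0.09 for Ywhae. Bnc2 was at −0.14 ± 0.07, Gjb6 at 0.19 ± 0.14 and the connexin gene Gja1 at 0.01 ± 0.06. The grainyhead genes Grhl1 and Grhl2 were at 0.30 ± 0.09 and 0.15 ± 0.09 and did not pass (limma adjusted p = 0.0881 and 0.451), and the p53 family member Trp73 was at 0.27 ± 0.16. At E13.5 none of the 22 passed, and their median was −0.04.

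Other genes of the same epithelium were described by lists chosen with earlier results of these data known. At E14.5, where 164 tested genes were called higher and 128 lower, 8 of 12 tested keratins rose and none fell, with a median difference of 0.47. Krt6a, a keratin of periderm and stressed epithelium, rose by 0.72 ± 0.09, the basal keratin gene Krt14 by 0.62 ± 0.09, and the simple epithelial keratin genes Krt7 and Krt18 by 0.50 ± 0.07 and 0.49 ± 0.06 (limma adjusted p = 0.00175, 0.00274, 0.00255 and 0.00141). Of 23 tested genes of desmosomes and epithelial junctions, 4 rose and all 23 were above zero, with a median of 0.25. These 4 were Pkp1 and Pkp2, the desmosomal cadherin gene Dsg2 (0.47 ± 0.11) and the tight junction gene Ocln (0.41 ± 0.09). The split of all called genes moved with the scale: it was 128 higher and 155 lower with arrays centred on the median of the tested genes, or 45.2% higher in place of 56.2%.

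Among 20 tested epithelial transcription factors and kinases, 4 rose at E14.5 and none fell, with a median of 0.23. They were the splicing regulators Esrp1 (0.32 ± 0.08) and Esrp2 (0.37 ± 0.08), the kinase gene Ripk4 (0.36 ± 0.07), which is needed for periderm, and Pitx1 (0.50 ± 0.12), a homeobox gene of the oral region. Of 11 proteases and surface proteins of epithelium, 3 rose: the membrane protease gene St14 (0.49 ± 0.12), its inhibitor Spint1 (0.51 ± 0.08) and Cdcp1 (0.55 ± 0.09). Of 13 genes of basal adhesion and the basement membrane, Lad1 (0.66 ± 0.08) and Cd151 (0.18 ± 0.04) rose. Of 20 measured genes of the cornified envelope and late differentiation, 12, among them Ivl, Flg and Tgm1, did not reach the level for testing, and 1 of the other 8, the protease gene Klk8 (0.36 ± 0.08), rose. Among 11 genes of the palatal edge epithelium Krt6a and Krt17 (0.81 ± 0.18) rose, 6 of the 11 were below zero and the median was −0.01. None of the genes on these lists passed at E13.5, where the list medians ran from −0.21 for the cornified envelope to −0.02 for the junction genes.

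These counts of calls moved with the analysis. Over the 3 other scalings 6 to 8 keratins, 3 or 4 junction genes, 3 or 4 transcription factors and kinases, 1 or 2 basal adhesion genes and 1 or 2 paralogues rose, and 2 of the proteases and surface proteins. With sex as a term 4 keratins, 1 junction gene, 2 transcription factors and kinases and none of the paralogues rose, and the medians were 0.47, 0.28, 0.27 and 0.06. Without controls 1 and 3 the keratins that rose were 6, the junction genes 3, the transcription factors and kinases 1 and the paralogues 0, with medians of 0.46, 0.29, 0.23 and 0.09. With E14.5 batch 1 alone, of 2 arrays per genotype, none of the genes of these lists was called. With batch 2 alone 4 keratins and 2 junction genes rose, while of the transcription factors and kinases none rose and 1 fell, and none of the paralogues passed. In batches 1 and 2 the medians were 0.53 and 0.40 for the keratins, 0.29 and 0.37 for the junction genes, 0.23 and 0.21 for the transcription factors and kinases and −0.03 and 0.26 for basal adhesion.

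**Figure D4:**
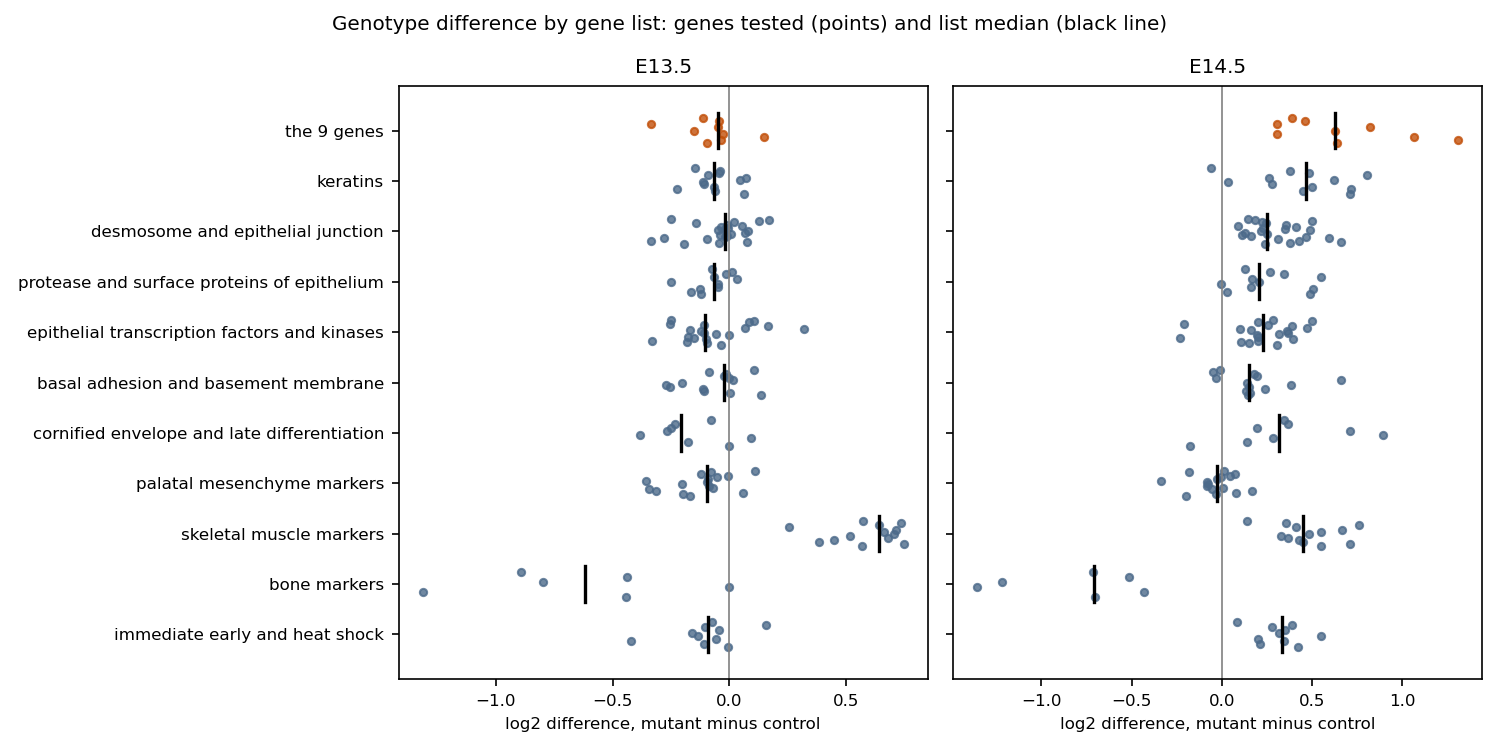
Points are the mutant minus control differences in log2 expression (horizontal axis) of the tested genes of each list at E13.5 (left) and E14.5 (right), the 9 genes in orange, and black lines are list medians. At E14.5 the medians of the lists drawn here lie above zero, from 0.15 for basal adhesion to 0.63 for the 9 genes, except those of the palatal mesenchyme markers at −0.03 and the bone markers at −0.71.

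Markers of other cell types were set beside these values. The 16 palatal mesenchyme markers had a median difference of −0.09 at E13.5 and −0.03 at E14.5, and none passed at either stage. Their values summed on the linear scale ranged from 15190 to 15930 in E14.5 controls and from 14010 to 15400 in E14.5 mutants, which overlapped, while the sum of the 16 keratins ranged from 2463 to 2749 in controls and from 3184 to 3928 in mutants, which did not. At E13.5 the keratin sum was 1726 to 1982 in controls and 1717 to 1825 in mutants. None of the measured markers of any list had a value at or below 0 on an array, which does not mean that all were expressed. Values went down to 0.18 for Enam and 0.38 for Flg.

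Skeletal muscle markers were higher in mutants at both stages, in 13 of 13 tested genes each time, with medians of 0.64 at E13.5 and 0.45 at E14.5, and none passed. Their summed value was 2125 to 2576 in E13.5 controls and 3129 to 3967 in E13.5 mutants, without overlap. At E14.5 it was 1012 to 2722 in controls and 1653 to 4063 in mutants, with controls 1 and 3 the lowest. Without controls 1 and 3 the muscle markers were at a median of −0.01, with 6 of 13 above zero. In the same fit the E14.5 differences were 0.62 for Sfn, 1.54 for Ly6d, 1.32 for Bnc1, 0.26 for Perp and 0.65 for Pkp3. They were 1.06 for Gjb2, 0.29 for Mpzl2, 0.47 for Grhl3 and 0.24 for Trp63. Of the 9 genes 6 were among the called genes, in a fit where 127 of the 11116 tested genes were called higher. The E14.5 contrast chose the 9 genes, so nothing is read from this count.

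Bone markers were lower at E14.5 in 6 of 6 tested genes, 4 of which fell (Sp7, Dmp1, Phex and Alpl), and their summed value was 4595 to 5905 in controls and 3473 to 4832 in mutants. With sex as a term, or without controls 1 and 3, 2 of the 6 fell, and with batch 1 alone none was called. At E13.5 the bone markers were below zero in 6 of 6 too (Dmp1 by only −0.0004), with a median of −0.62, and none passed. Their E13.5 summed value was 422 to 643 in controls and 206.6 to 422.7 in mutants. Of 10 tested immediate early and heat shock genes, all 10 were above zero at E14.5 and 5 rose, against 3 with sex as a term, 3 without controls 1 and 3, 3 with batch 2 alone and 0 with batch 1 alone. Ier3 rose by 0.55 ± 0.08, Fos by 0.42 ± 0.10, Dusp1 by 0.35 ± 0.06, Socs3 by 0.32 ± 0.05 and the small heat shock gene Hspb1 by 0.39 ± 0.09 (limma adjusted p = 0.00334, 0.0363, 0.011, 0.00499 and 0.0395). The mean of this list was 6.76 to 6.93 in E14.5 controls and 7.15 to 7.23 in E14.5 mutants, and 7.14 to 7.18 and 7.01 to 7.16 at E13.5. Of the markers of tooth, nasal epithelium, endothelium, cartilage, nerve and blood, Ambn and Hapln1 fell, Reg3g rose, and no other tested gene passed at E14.5. The part of these cell types and of sex, whose score was uneven between the E14.5 genotypes, in the values of the 9 genes was not tested. In the fit with sex as a term the E14.5 differences ran from 0.33 for Perp and Mpzl2 to 1.36 for Ly6d. There 87 of the 11116 tested genes were called higher, 7 of the 9 genes among them, without Grhl3 and Trp63. Since the E14.5 contrast chose the 9 genes, nothing is read from this count.

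How the 9 genes varied from array to array within a group was described by the residuals of the fit over 16 arrays, which share tissue and scale. Over the 36 pairs the median Pearson r was 0.19, and 23 pairs were above zero. The closest were Perp and Grhl3 (r = 0.775), Sfn and Grhl3 (0.723) and Sfn and Perp (0.722), while Ly6d and Trp63 ran against each other (−0.53). For Perp, Grhl3 and Sfn alike E14.5 mutant 5 was the highest mutant of its stage, and r without that array was not computed. Against the mean of the other members Grhl3 had the highest r, 0.549, and Sfn 0.513, and Ly6d and Trp63 were near zero at −0.03 and −0.07. Among all tested genes these r stood at percentile 93.0 for Grhl3 and 91.5 for Sfn. The rest of the 9 genes stood between 36.8 and 83.9, so many other genes were as close. The genes whose residuals were most like the mean of the 9 were Exph5, Ppm1d, Gm8273, Ptprf, Akap8, Cmip, Ttc39c and Dhx8, with r from 0.845 to 0.903, where the median over 11107 genes was 0.0637 and the 95th percentile 0.579. None of these 8 was on an epithelial list and none was called at E14.5. Epcam, a surface protein gene of epithelial cells, ranked 10 (0.84) and Krt6a 13 (0.821). They were the only 2 of the 20 most similar genes on an epithelial list.

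The 9 genes lie on 7 chromosomes: Sfn and Grhl3 on 4, Bnc1 and Pkp3 on 7, Mpzl2 on 9, Perp on 10, Gjb2 on 14, Ly6d on 15 and Trp63 on 16. The nearest tested gene on each side of each, 18 in all, was called at neither stage. At E14.5 the neighbours ranged from −0.08 to 0.24 with a median of 0.10, and at E13.5 from −0.30 to 0.17 with a median of −0.03. Gjb6, the connexin gene beside Gjb2, was at 0.19, Lynx1 beside Ly6d at 0.17, and Gpn2 and Zdhhc18 on either side of Sfn at 0.20 and 0.03.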

How the data were processed

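RNA of 16 palate samples was measured on one-colour Affymetrix arrays. The authors deposited log2 expression values for 45101 probe sets, made with GCRMA per the submitters' processing notes. Of GCRMA the version and settings, and whether one run covered both stages, are not given. The platform annotation named 1 gene for 34958 probe sets. For each of 18194 genes the single-gene probe set of highest overall mean stood for the gene, and the 11116 genes at log2 4 or more on 3 or more arrays were tested.

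limma 3.58.1 in R 4.3.3 (lmFit and eBayes) was fitted to the 16 arrays with 4 group means and a batch term for the E14.5 arrays. The scripts were tested on simulated data. The number of arrays limits the precision. Figures were drawn with matplotlib 3.10.9 in Python 3.11.15.

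The 9 genes and all lists were chosen with earlier results of these data known. Named were the 9 genes and their probe sets, the paralogues by list, up to 4 genes per other list with the smallest p at E14.5 and up to 2 at E13.5, every gene of a count of 5 or fewer, and the 8 genes with the most similar residuals. Neighbouring genes, Krt17, Epcam, the rank of Krt6a and the cornified envelope genes below the filter were named after their values were seen. Deviations of arrays with the same replicate number had an r of −0.169 to 0.166 in the E13.5 groups and of −0.445 to 0.0271 in the E14.5 groups, so the numbers were not taken as pairs. Alternatives covered the filter, probe set choice, scaling, variance model, batch, replicate block, sex, beta-actin signal and leaving out arrays.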

Additional observations from a re-analysis of the deposited data

Results flagged for a closer look

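In 30 groups of 5 arrays examined, 1 for each probe set of the 9 genes in each E14.5 genotype, 3 had an array far from the others, and chance alone gives about 1 in 20. Perp read 9.491 in E14.5 mutant 5, where the next highest mutant read 9.233. The Trp63 probe set 1451876_a_at, too low to be tested, read 1.144 in the same array, where the next mutant read 0.935. The Pkp3 probe set 1418832_at, also too low to be tested, read 0.7173 in E14.5 control 5, where the next control read 0.7598.

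Mpzl2 went opposite ways at the stages, with every E13.5 mutant below every E13.5 control and every E14.5 mutant above every E14.5 control. The genotype effect at E14.5 exceeded that at E13.5 by 0.6431, and because the gene was selected on the E14.5 contrast this difference was not tested here. The effects of the stages may also not be on the same scale.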

How the results depend on the processing

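Over the alternatives, the E14.5 differences of the 9 genes kept their direction in 289 of 289 values, and the E13.5 differences in 275 of 289. Leaving out E14.5 arrays, or a sex term within E14.5, did not change the E13.5 estimates. Leaving out E13.5 arrays did not change the E14.5 estimates. Many of these values thus could not change direction, and the E14.5 contrast chose the genes, so nothing is read from these tallies. Scaling each array to the median of the tested genes was added after the data were seen. Counts changed more. At E13.5, where 11 genes were called, the count was 20 with arrays centred on their median, 85 with array weights, 20 without the batch term, 6 with a replicate block, 3 with E14.5 batch 1 alone and 6 with a beta-actin term. It was 6 to 35 when single arrays were left out, lowest without E13.5 mutant 1, mutant 3 or control 3 and highest without mutant 2. None of the 9 genes was called at E13.5, but 1, Mpzl2, was with arrays centred on their median (adjusted p = 0.0286, limma), an intensity trend with robust variance (0.0428), array weights (0.0183) or no batch term (0.0446). At E14.5 the 292 genes became 184 without a filter, 155 with array weights, 104 with the replicate block, 64 with E14.5 arrays alone, 31 with batch 1 alone, 128 with batch 2 alone and 143 with a sex term. Leaving out single arrays gave 105 (without mutant 1) to 262. Of the 9 genes, 8 were called at E14.5, 2 with the filter at log2 6 (which keeps 3 of them) and 5 with the replicate block. It was 5 with E14.5 arrays alone, 0 with batch 1 alone and 5 with batch 2 alone. The E14.5 contrast chose these genes, so nothing is read from their counts. The difference between stages called 13 genes, 8 with the filter at log2 6, 7 over single probe sets, 25 with arrays centred on their median, 40 with array weights, 3 with the replicate block, 6 with batch 1 alone, 20 with batch 2 alone, 20 without E14.5 controls 1 and 3, 6 with the beta-actin term, and 3 to 20 without single arrays. The batches alone hold fewer arrays, and the cause of the other changes was not tested. Replicate numbers did not pair the arrays.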
